A study of Mus musculus with 4 samples.

Results

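Integrins are paired adhesion receptors, and tetraspanins are small membrane proteins that organise integrins and other receptors into clusters. The genes described here were taken by name from the array annotation: all probes for an integrin alpha or beta subunit, for a Tspan gene, or for Cd9, Cd37, Cd53, Cd82 or Cd151. This gave 56 of the 31829 gene names on the array, measured by 80 of its 39429 probes: 27 integrin subunits, 25 tetraspanins and 4 genes named after proteins that bind integrin tails. The rule uses names and no measured values, but it was chosen with earlier results of these data known.

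Spleen cells of female C57BL/6 mice aged 8 weeks were grown for 72 h with IL-4 and LPS, which together drive mouse B cells to proliferate and switch immunoglobulin class. The imatinib group had 10 µM imatinib, an inhibitor of the ABL, KIT and PDGF receptor kinases, and the control group had none. RNA of unsorted splenocytes was measured on 2 Agilent 1-colour arrays per group, all 4 on 1 slide. The labels leave unstated whether a group's samples were separate mice or cultures, so the p-values measure only the spread between these samples, which may be technical. Probes well above background numbered 25192 and 26762 with imatinib, against 25336 and 25018 in control, and the arrays' 75th percentiles of processed signal were 699 and 678 against 739 and 854.

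An integrin is 1 alpha and 1 beta chain, and the pair decides what the cell can hold: collagens, laminins, proteins with an RGD tripeptide such as fibronectin, or the ICAM and VCAM proteins on other cells. Lymphocytes use alphaL beta2 (LFA-1) to bind ICAMs, alpha4 beta1 to bind VCAM-1 and fibronectin, and alpha4 beta7 to bind MAdCAM-1 in gut venules, while alphaM beta2 and alphaX beta2 mark myeloid and dendritic cells. Tetraspanins carry no large ligand-binding domain of their own; CD9, CD81 and CD151 attach to partners such as integrins and Ig-family proteins, and a subgroup called TspanC8 carries the protease ADAM10 to the cell surface.

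Values below are log2 signals less the 75th percentile of the same array, so a value of 0 is a bright probe, and differences are imatinib minus control with the standard error (SE) of the limma fit. A gene was tested if a probe was well above background in both samples of either group, and a change was called at an adjusted p under 0.05 over all 25375 tested probes. The brightest tested probe stands for its gene. Where 1 array is left out, the lone array of its group is assumed to vary like those of the other group. Levels of different probes are not comparable, since each probe binds its target with its own strength.

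Of the 56 genes, 41 were tested. Among these genes taken by name, differences spanned a wider range in integrin subunits than in tetraspanins. Among 18 tested integrin subunits, 10 were higher and 4 were lower with imatinib, with a median difference of 0.60 and a range of -1.12 to 3.34, in which Itgax, not above background in control, counts at its bound. Among 19 tested tetraspanins, 6 were higher and 2 were lower, with a median of 0.12 and a range of -0.52 to 1.75. Cd63, a tetraspanin outside the named genes, differed by 3.70. The integrin low of -1.12 is 1 of 3 Itgam probes, and the others differed by 0.03 and 0.44. Of all 20544 tested genes, 41.1% passed in either direction, 19.5% were higher and 21.7% were lower, and the median was 0.01. At least 2-fold rises were found in 6 integrin subunits and 1 tetraspanin, against 6.29% of all tested genes, and an at least 2-fold fall in 1 integrin subunit (1.31% of all tested genes). Imatinib and control arrays did not overlap in 36 of the 41 member genes, against 72.7% of all tested genes. These counts describe the families and are not a test of them.

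The split between rises and falls depends on how the arrays are scaled. Spike-in scaling moved the median of all tested probes by -0.28, and median centring moved it by -0.22. The integrin subunits then split into 8 higher and 6 lower under spike-in scaling and 9 higher and 6 lower under median centring, with medians of 0.32 and 0.39. The tetraspanins split into 4 higher and 6 lower and into 4 higher and 5 lower, and their median turned to -0.16 and -0.095. Over all tested probes, 41.9% were called, 4905 (19.3%) higher and 5717 (22.5%) lower, against 2802 and 11739 under spike-in scaling and 3124 and 10003 under median centring.

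**Figure D1:**
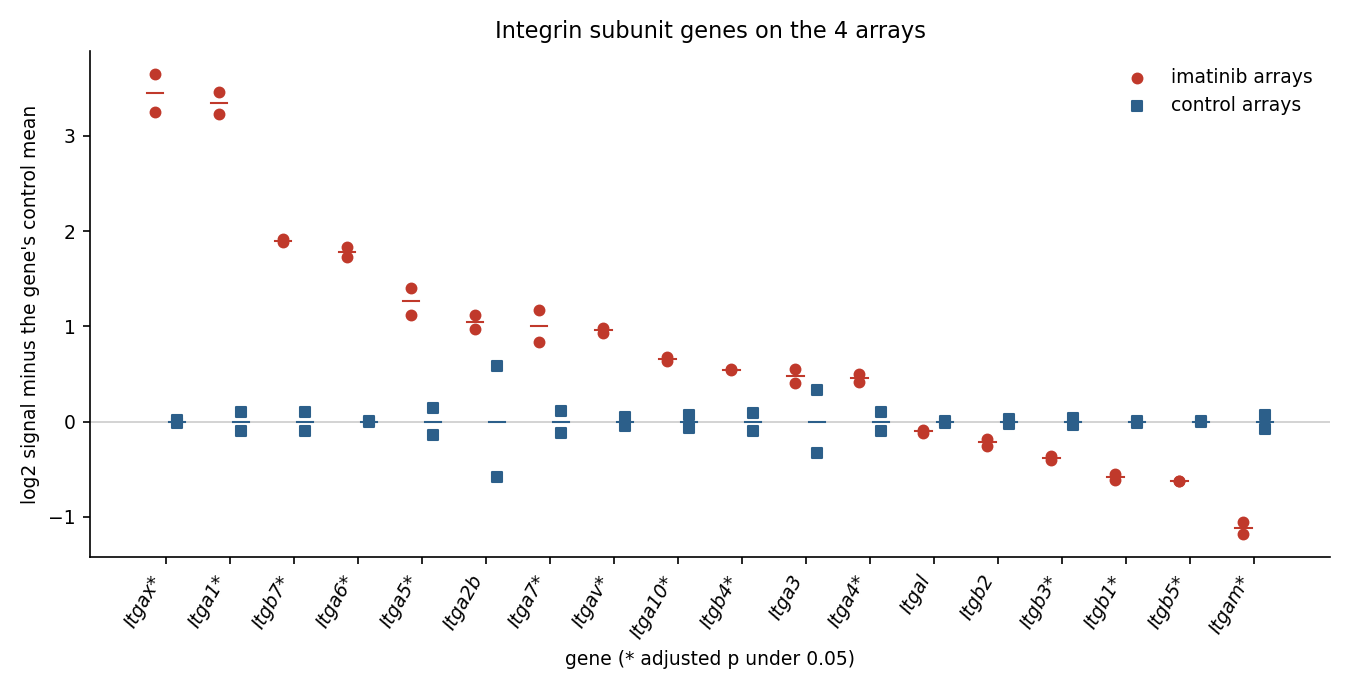
Integrin subunit genes on the 4 arrays. The vertical axis is the log2 signal minus the mean of the control arrays for the same gene; red circles are imatinib arrays, blue squares are control arrays, short lines are group means, and a star marks an adjusted p under 0.05. The genes run from Itgax (fitted at 3.45, with control arrays not above background) on the left to the repeat-holding Itgam probe (-1.12) on the right, and the wide control pairs are Itga2b and Itga3.

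The collagen receptor subunits were both higher with imatinib. Itga1 encodes alpha1, the collagen and laminin binding chain that pairs with beta1 and is known from memory T cells, NK cells and macrophages. Its signal was -0.63 and -0.40 on the imatinib arrays, against -3.76 and -3.96 on the control arrays. Both imatinib arrays lay far above both control arrays, at processed signals of 451 and 514 against 54.6 and 54.7. The difference of 3.34 (SE 0.12, adjusted p = 0.00083) is about 10.2-fold, and 61 of the 20544 tested genes had a larger one. A second Itga1 probe was not well above background on any array. The first probe holds a GA run shorter than the 12 bases counted as a repeat, so it is not among the repeat-holding probes. The 23 tested probes with a run of at least 12 bases of this unit had a median difference of 1.93. Whether the run has a part in the rise of Itga1 was not tested. The sequences are shown because only 1 probe gave a signal, the first by its bases 1 to 30 and the second whole.
Itga1 A_52_P518922: ttgggagagagagatcaatgccttgtgtga
Itga1 A_52_P459929: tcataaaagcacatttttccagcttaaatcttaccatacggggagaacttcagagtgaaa

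Itga10, the alpha10 collagen receptor chain known from cartilage, was at -0.94 and -0.89 with imatinib, against -1.51 and -1.65 in control. The groups were apart by 0.66 (SE 0.076, adjusted p = 0.0071). Its second probe, which shares 54 bases with the first and so is no separate measurement, differed by 0.69. Itga2, the collagen receptor chain of platelets, and Itga11 were not tested.

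The laminin receptor chains were led by Itga6, which pairs with beta1 or beta4 and is carried by T cells, platelets and epithelia. Itga6 was at 2.35 and 2.25 with imatinib, against 0.53 and 0.51 in control, with both pairs tight and well apart. The difference was 1.78 (SE 0.067, adjusted p = 0.00087), or 3.43-fold. The probe holds a run of 17 bases of a TTG unit, shown in capitals with the bases on either side.
Itga6 A_55_P2015670, bases 17 to 46: gaggtcTTGTTGTTGTTGTTGTTctgacct
The 14 tested probes with a run of this unit had a median difference of 0.12. No other Itga6 probe is on the array. Itga7, the laminin chain of muscle, was dim, at -5.07 and -4.73 with imatinib against -5.78 and -6.02 in control, and differed by 1.00 (SE 0.15, adjusted p = 0.013). Its size fell to 0.29 under normexp, another background correction, and its adjusted p was 0.055 without control 2 and 0.053 without the filter on dim probes. Itga3, the alpha3 chain of epithelial laminin receptors, differed by 0.48 (SE 0.25, adjusted p = 0.19) with an interval of -0.19 to 1.16; normexp gave 0.25 (adjusted p = 0.019), and with control 2 as the only control it was 0.82 (adjusted p = 0.025).

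Among the RGD receptor chains, Itgav and Itga5 were higher. Itgav encodes alphaV, which binds vitronectin and latent TGF-beta and pairs with beta1, beta3, beta5, beta6 and beta8. It was at -1.87 and -1.93 with imatinib, against -2.90 and -2.82 in control. The difference was 0.96 (SE 0.067, adjusted p = 0.0026), and the second probe differed by 0.87. Itga5, the fibronectin receptor chain, was at -5.02 and -4.74 with imatinib, against -6.00 and -6.29 in control, where only 1 of the 2 arrays was above background. It differed by 1.26 (SE 0.15, adjusted p = 0.0079), a size that fell to 0.37 under normexp. Itga2b, the platelet fibrinogen receptor chain, differed by 1.05 (SE 0.41, adjusted p = 0.12), at -5.32 and -5.17 with imatinib against -5.71 and -6.87 in control. With control 2 as the only control its difference was 1.63 (adjusted p = 0.011), and normexp gave 0.26 (adjusted p = 0.027). Itga8 was not tested.

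Itga4, shared by alpha4 beta1 and alpha4 beta7 and present on most lymphocytes, was at 1.22 and 1.13 with imatinib, against 0.82 and 0.62 in control. Its second probe, at 0.34, did not pass (adjusted p = 0.11) but did under normexp (0.25, adjusted p = 0.014). The difference on the brighter probe was 0.46 (SE 0.094, adjusted p = 0.025). It was 0.24 under median centring (adjusted p = 0.096) and 0.18 under spike-in scaling (adjusted p = 0.19), and it did not pass without the filter on dim probes (adjusted p = 0.087) or without imatinib 1, imatinib 2 or control 2 (adjusted p of 0.061 to 0.12). Itga9 was not tested.

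The leukocyte chains, all partners of beta2 or beta7, went separate ways. Itgax encodes CD11c, the chain that marks dendritic cells and some macrophages and activated B cells. It was at -4.84 and -5.23 with imatinib, against -8.47 and -8.50 in control, where it was not well above background on either array. Set against the background floor, it was at least 2.56-fold higher with imatinib; the fitted difference was 3.45 (adjusted p = 0.0011), and normexp gave 0.55. The bound uses the mean of both imatinib arrays and, on each control array, the higher of the lowest above-background signal and the signal of Itgax itself.

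Itgal, the LFA-1 alpha chain, was among the brightest integrin probes and was at 1.89 and 1.93 with imatinib, against 2.02 and 2.00 in control. Its difference of -0.10 (SE 0.058, adjusted p = 0.24) had an interval of -0.26 to 0.06, and its second probe differed by -0.40 (adjusted p = 0.13). That second probe passed as lower under normexp, at -0.42 (adjusted p = 0.012). Under median centring and spike-in scaling Itgal passed as lower, at -0.32 and -0.38. Itgae, the alphaE chain of intraepithelial T cells that pairs with beta7, was above background only on control 1 and was not tested. Itgad was above background on no array.

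Itgam encodes CD11b, the Mac-1 alpha chain of monocytes, macrophages and neutrophils, and its 3 probes differed from each other. The brightest was lower with imatinib, at 0.60 and 0.73 against 1.86 and 1.71 in control, a difference of -1.12 (SE 0.089, adjusted p = 0.0035). This probe opens with a CA run of 20 bases, in capitals below, and the 50 tested probes with a run of that unit had a median of -0.63. The other probes hold no such run. The first of them was at -4.28 and -4.00 with imatinib against -4.12 and -4.23 in control, with overlapping groups and a difference of 0.03 (SE 0.12, adjusted p = 0.87). The other differed by 0.44 (SE 0.18, adjusted p = 0.13), and it passed as higher under normexp, at 0.26 (adjusted p = 0.022). The mean of the 3 probes differed by -0.22 and did not pass (adjusted p = 0.23). A fall of Itgam thus rests on the repeat-holding probe alone, and without repeat-holding probes, a setting chosen after the values were seen, 9 integrin subunits were higher and 3 lower. The sequences are given to show that difference, with bases 1 to 30 of the first and the others whole.
Itgam A_55_P1977934: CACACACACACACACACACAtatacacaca
Itgam A_55_P1977926: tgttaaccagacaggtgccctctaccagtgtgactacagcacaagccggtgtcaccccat
Itgam A_55_P1977929: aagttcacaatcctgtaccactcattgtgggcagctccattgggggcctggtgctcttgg

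The beta chains split, with Itgb7 and Itgb4 higher and Itgb1, Itgb3 and Itgb5 lower with imatinib. Itgb7 encodes the beta chain of the gut-homing receptor alpha4 beta7 and of alphaE beta7. It was at 1.30 and 1.33 with imatinib, against -0.48 and -0.68 in control. Every imatinib value was above every control value, and the difference of 1.90 (SE 0.089, adjusted p = 0.0012) is 3.73-fold. It is the largest rise among the member genes measured above background on all 4 arrays after that of Itga1. Itgb4, which pairs only with alpha6 and anchors epithelial hemidesmosomes, was at -3.49 and -3.48 with imatinib against -3.93 and -4.12 in control, a difference of 0.54 (SE 0.086, adjusted p = 0.014). Its call ended under spike-in scaling (0.26, adjusted p = 0.054), without the filter on dim probes (adjusted p = 0.058) and without either imatinib array (adjusted p of 0.071 and 0.073), and normexp gave 0.36.

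Itgb1, the most widely shared beta chain, was at 0.13 and 0.20 with imatinib, against 0.75 and 0.73 in control. The fall was -0.58 (SE 0.061, adjusted p = 0.0060), and the second probe differed by -0.33 (adjusted p = 0.019). Itgb5, a partner of alphaV, was at -0.44 and -0.43 with imatinib, against 0.19 and 0.19 in control, and differed by -0.63 (SE 0.056, adjusted p = 0.0044). Itgb3, the beta chain of the platelet and vitronectin receptors and the integrin probe with the highest mean over all 4 arrays, was at 1.96 and 1.92 with imatinib, against 2.35 and 2.28 in control. Its fall of -0.38 (SE 0.062, adjusted p = 0.015) was -0.38 on the second probe too, and the call ended without the filter on dim probes (adjusted p = 0.065) and without either imatinib array (adjusted p of 0.083 and 0.098). Itgb2, the beta chain of LFA-1, Mac-1 and CD11c, was at 1.08 and 1.15 with imatinib, against 1.31 and 1.36 in control. Its difference of -0.22 (SE 0.064, adjusted p = 0.061) missed the threshold under the main scaling and passed under median centring (-0.43) and spike-in scaling (-0.50). Itgb2l, Itgb6 and Itgb8 were above background on no array.

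Ratios of 2 chains within an array do not depend on the constant subtracted from that array, and show which chains of a receptor moved unequally. They can change under quantile normalization and normexp. Normexp gave 0.71 for Itgav and -0.36 for Itgb3, against 0.96 and -0.38 in the main fit. Each ratio below is the log2 ratio minus its mean on the control arrays. Itgb7 over Itgb1, the possible partners of alpha4, was 2.49 and 2.46 on the imatinib arrays, against 0.088 and -0.088 on the control arrays. Itga4 over Itgb1 was 1.11 and 0.96 with imatinib against 0.090 and -0.090 in control, and Itga4 over Itgb7 was -1.38 and -1.50 against 0.0016 and -0.0016. For the laminin receptor alpha6 beta1, Itga6 over Itgb1 changed by 2.36, and for alphaV beta3, Itgav over Itgb3 changed by 1.34. For LFA-1, Itgal over Itgb2 changed by 0.12, the smallest in size of the 7 integrin ratios computed. No ratio overlapped between groups, and the exact two-sided permutation p of each was 0.333, the smallest that 2 against 2 arrays can give.

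**Figure D2:**
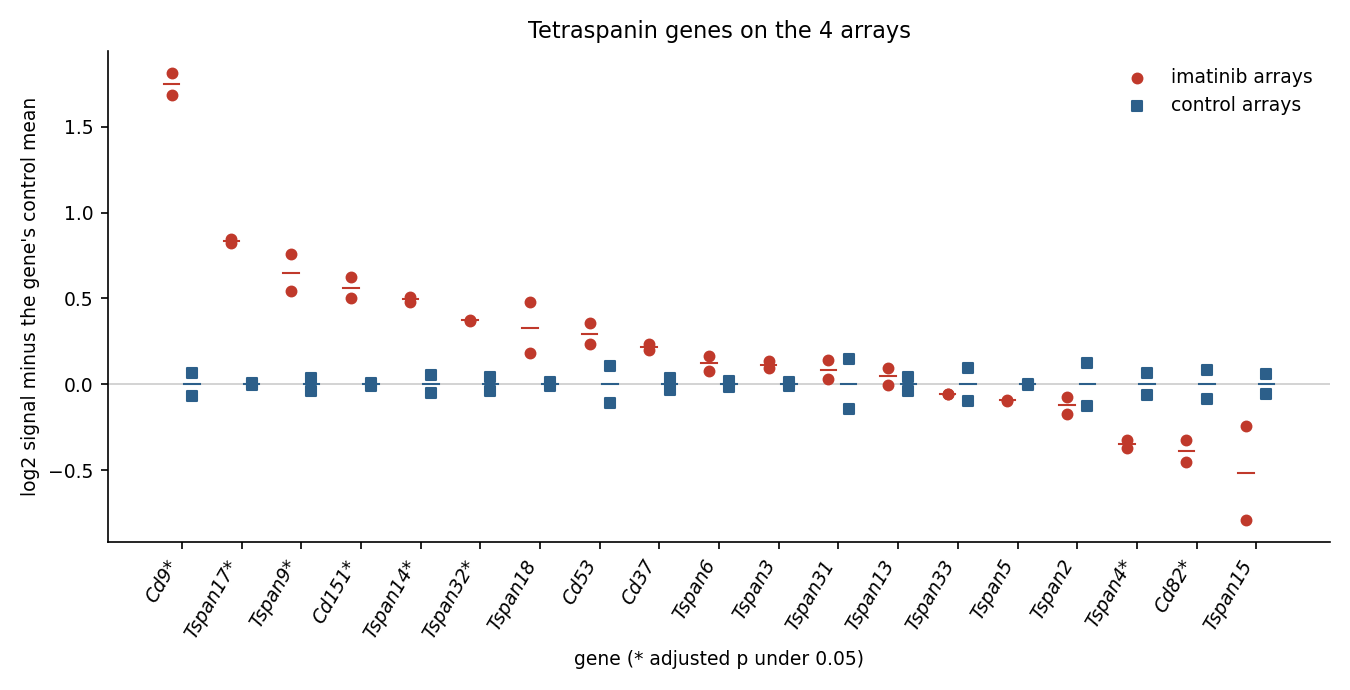
Tetraspanin genes on the 4 arrays, on the same scale and with the same symbols as the integrin plot. Cd9 stands apart at the left with a difference of 1.75, and the means of the other genes run from 0.84 (Tspan17) to -0.52 (Tspan15).

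The tetraspanins with CD names were led by Cd9, which joins integrins and the fusion machinery and is carried by marginal zone B cells, plasma cells, platelets and macrophages. Cd9 was at 2.57 and 2.44 with imatinib, against 0.82 and 0.69 in control. The arrays of each group lay close together and far from those of the other, and the difference of 1.75 (SE 0.086, adjusted p = 0.0013) is 3.36-fold. Cd151, which binds the laminin receptor integrins tightly, was at 0.04 and 0.17 with imatinib, against -0.47 and -0.45 in control. It differed by 0.56 (SE 0.071, adjusted p = 0.0087), with an adjusted p of 0.056 without imatinib 2, and its second probe differed by 1.09 (0.62 under normexp).

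Cd82, a tetraspanin induced by activation in lymphocytes, was the brightest member by its own probe, at 5.89 and 5.76 with imatinib against 6.30 and 6.13 in control. All 3 of its probes were lower, by -0.39 (SE 0.094, adjusted p = 0.037), -0.57 (adjusted p = 0.0053) and -0.86 (adjusted p = 0.0036). The call on the brightest ended without any 1 of the 4 arrays (adjusted p of 0.051 to 0.16) and without the filter on dim probes (adjusted p = 0.12). Cd37, a B cell tetraspanin, was at 4.34 and 4.37 with imatinib against 4.17 and 4.10 in control. Its difference was 0.22 (SE 0.062, adjusted p = 0.056), with a second probe at 0.16. It passed as higher under quantile normalization (0.31, adjusted p = 0.020), normexp (adjusted p = 0.021), the filter on all 4 arrays (adjusted p = 0.049) and the trend model (adjusted p = 0.0053), and was -0.064 under spike-in scaling. Cd53, a tetraspanin of all leukocytes, was at 1.09 and 0.97 with imatinib against 0.63 and 0.84 in control, a difference of 0.29 (adjusted p = 0.090). Cd53 passed as higher under normexp (0.28, adjusted p = 0.012) and the trend model (adjusted p = 0.0078), and was 0.014 under spike-in scaling. Within arrays, Cd9 over Cd82 was 2.14 and 2.14 on the imatinib arrays, against -0.019 and 0.019 on the control arrays.

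The control region of Cd9 is shown because the labels name the transcription factor E2A among the factors of interest, and E proteins bind E-box sequences such as CAGGTG. It is the 250 bases before the RefSeq start of Cd9, chr6:125494761-125495010 on the minus strand of build GRCm38.p6, with the motif in capitals, 73 bases before the start.
Cd9: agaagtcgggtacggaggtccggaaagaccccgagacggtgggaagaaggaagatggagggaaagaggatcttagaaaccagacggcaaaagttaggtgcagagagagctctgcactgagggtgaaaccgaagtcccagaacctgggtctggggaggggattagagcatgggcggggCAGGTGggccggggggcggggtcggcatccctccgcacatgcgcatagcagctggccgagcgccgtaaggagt
The motif CAGGTG, searched on both strands, was found for 14 of the 46 member genes with a promoter in the RefSeq table, or 30.4%, against 19.4% of all genes in it and 17.2% of all promoters of the same length. By call it was found in 3 of 14 genes that were higher (21.4%, against the 19.4% of all genes), 3 of 6 that were lower and 3 of 13 that were tested and not called. The remaining matches were in 5 of 13 genes that were not tested. The motif was chosen after values of these genes were known, and a match describes letters, not binding.

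The TspanC8 group, which escorts ADAM10, had 2 of 5 tested members higher and none lower, against 19.5% and 21.7% of all tested genes. The median difference of the group was -0.05. Tspan17 was at -0.69 and -0.67 with imatinib, against -1.51 and -1.52 in control, a difference of 0.84 (SE 0.057, adjusted p = 0.0025). Tspan14 was at 1.15 and 1.17 with imatinib, against 0.61 and 0.72 in control, and differed by 0.49 (SE 0.068, adjusted p = 0.010). The difference of Tspan14 was 0.28 under median centring (adjusted p = 0.069) and 0.21 under spike-in scaling (adjusted p = 0.12), and it did not pass without imatinib 1 or imatinib 2 (adjusted p of 0.062 and 0.068). Tspan5 and Tspan33 differed by -0.09 and -0.05 and did not pass. Tspan15 was above background in control and on neither imatinib array, at -5.77 and -6.31 with imatinib against -5.58 and -5.46 in control. Its own imatinib signals lay above the floor, so no minimum fold can be given. The fitted difference of -0.52 (1.43-fold lower) had an interval of -1.08 to 0.04 and did not pass (adjusted p = 0.12). It passed as lower under median centring (-0.73, adjusted p = 0.031), spike-in scaling (-0.80, adjusted p = 0.020) and with imatinib 1 left out (-0.79, adjusted p = 0.034); normexp gave 0.03. Adam10 itself differed by 0.14 (adjusted p = 0.19).

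A second Tspan17 probe read unlike the first on 1 array. It read 79.9 and 924 (processed signal) with imatinib, against 70.1 and 67.1 in control. Imatinib 2 alone was high, while imatinib 1 was close to the control arrays, and the fit gave 2.19 (SE 1.26, adjusted p = 0.24). The mean of both Tspan17 probes differed by 1.51 and did not pass (adjusted p = 0.14). The probe, whose sequence is shown for that reason, contains no repeated unit.
Tspan17 A_55_P2069597: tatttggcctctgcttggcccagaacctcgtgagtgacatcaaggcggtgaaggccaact

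Of 9 other Tspan genes tested, 2 were higher, 1 was lower and 6 did not pass, against 19.5% higher and 21.7% lower among all tested genes. Tspan9, a tetraspanin of platelets, was dim, at -5.13 and -5.34 with imatinib against -5.85 and -5.93 in control. It differed by 0.65 (SE 0.098, adjusted p = 0.012), which was 0.22 under normexp, and did not pass under quantile normalization (0.45, adjusted p = 0.062), without the filter on dim probes (adjusted p = 0.052), without imatinib 1 (adjusted p = 0.053) or without control 2 (adjusted p = 0.055). Tspan32, a tetraspanin of blood cells, was at 2.17 and 2.16 with imatinib against 1.83 and 1.75 in control, a difference of 0.37 (SE 0.063, adjusted p = 0.016). Neither of its other probes passed, at 0.01 and -0.07. The call ended for the mean of its probes (0.11, adjusted p = 0.24), without the filter on dim probes (adjusted p = 0.069), under median centring (0.16, adjusted p = 0.19) and spike-in scaling (0.09, adjusted p = 0.42), and on leaving out imatinib 1, imatinib 2 or control 2 (adjusted p of 0.053 to 0.097).

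Tspan4, known from migrasomes, was at -1.03 and -0.98 with imatinib, against -0.59 and -0.72 in control. Its difference was -0.35 (SE 0.074, adjusted p = 0.027) and did not pass without the filter on dim probes (adjusted p = 0.096) or without imatinib 1, imatinib 2 or control 1 (adjusted p of 0.066 to 0.14). Tspan13 was bright and its groups overlapped, at 3.56 and 3.46 with imatinib against 3.51 and 3.43 in control, with an interval of -0.15 to 0.24 for the difference. Tspan2, Tspan3, Tspan6, Tspan18 and Tspan31 did not pass either, with differences of -0.12 to 0.33, although a second, dimmer Tspan2 probe passed at -0.39 (adjusted p = 0.035). Tspan1, Tspan7, Tspan8, Tspan10, Tspan11 and Tspan12 were above background on no array.

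Of the 4 genes that the names brought in, Itgb1bp1, which encodes an inhibitor that binds the beta1 tail (ICAP-1), was lower by -0.37 (SE 0.064, adjusted p = 0.017) on its brighter probe and at 0.06 on the other; it did not pass as their mean (-0.15, adjusted p = 0.12) or without the filter on dim probes (adjusted p = 0.072). Itgb1bp2, the muscle protein melusin, was lower by -0.61 (adjusted p = 0.0084), which was -0.07 under normexp. Itgb1bp3, named Nmrk2 in RefSeq and encoding a nicotinamide riboside kinase, was higher by 0.67 (adjusted p = 0.0084), and 0.27 under normexp. Without imatinib 2 these 3 did not pass, at adjusted p values of 0.089, 0.056 and 0.054. Itgb3bp, a centromere protein, differed by -0.05 (adjusted p = 0.57).

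**Figure D3:**
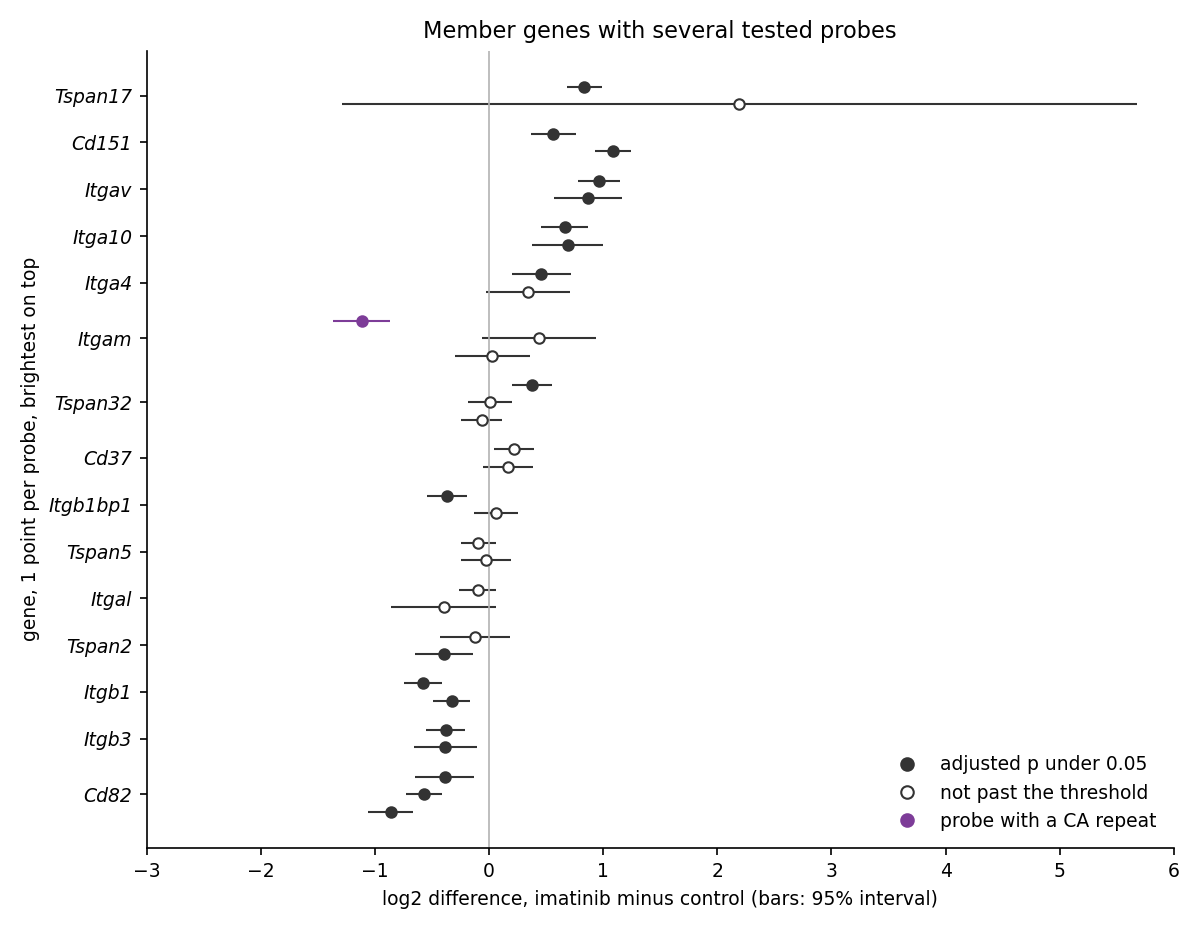
Member genes with several tested probes. The horizontal axis is the log2 difference, imatinib minus control, bars are 95% intervals of the fit, filled points passed an adjusted p of 0.05, and the brightest probe of a gene is on top. The probes of Itgam, Itgb1bp1 and Tspan32 lie on both sides of 0, and the wide bar of Tspan17 comes from its second probe.

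In all, 15 member genes had several tested probes. The probes lay on 1 side of 0 in 12 of them, and those of Itgam, Itgb1bp1 and Tspan32 did not. In Itga4, Tspan2 and Tspan17 the probes had 1 sign and differed in their call.

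Outside the named members, Cd63, a tetraspanin of late endosomes and lysosomes, was at 2.61 and 2.59 with imatinib against -1.07 and -1.13 in control, a difference of 3.70 (SE 0.061). Rom1 was lower by -0.28 (adjusted p = 0.046), Upk1a did not pass, and the Cd81 probe was left out for a marked spot. The counts of other gene lists below stand against the 19.5% higher and 21.7% lower among all tested genes and are not tests of the lists. Among known tetraspanin partners, 7 of 12 tested genes were higher and 2 were lower, with a median of 0.40. The largest were Epcam, an adhesion protein held by tetraspanins, at 1.40, Ifitm1, a CD81 and CD9 partner, at 1.25, and Cd36, a scavenger receptor that CD9 binds, at -1.02. Cd2, the T cell adhesion receptor, was at 0.98.

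Of 38 tested genes of the cytoplasmic integrin machinery, 7 were higher and 5 were lower, against 41.1% of all tested genes called in either direction, with a median of -0.01. Those at the top were Fyb (ADAP, 2.84), Skap1 (its partner in T cells, 2.55), Tgfb1i1 (Hic-5, 1.49) and Actn1 (alpha-actinin, 1.05). Fermt3, the blood cell kindlin that binds beta tails, was lower by -0.74 (adjusted p = 0.0036), as were Rapgef1 (an exchange factor that activates Rap1) at -0.69, Nedd9 (a focal adhesion scaffold) at -0.61 and Ptk2b (the kinase Pyk2) at -0.43. Tln1, the talin that opens integrins, differed by -0.001 (adjusted p = 0.99).

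Of 16 tested integrin ligands, 7 were higher and 3 were lower, with a median of 0.34. Fibronectin (Fn1) and thrombospondin 1 (Thbs1) were above background only with imatinib, at least 6.28-fold and at least 1.89-fold higher. Vwf, the von Willebrand factor, was higher by 2.37, with 1 of 2 control arrays above background. Icam1, an LFA-1 and Mac-1 ligand, was lower by -0.92 (SE 0.068, adjusted p = 0.0030), Icam2 by -0.43 and Madcam1, the alpha4 beta7 ligand, by -0.47. Icam4 was higher by 0.73 (adjusted p = 0.049), and Icam5 differed by 0.28 and did not pass. Vcam1, the alpha4 beta1 ligand, was not above background.

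**Figure D4:**
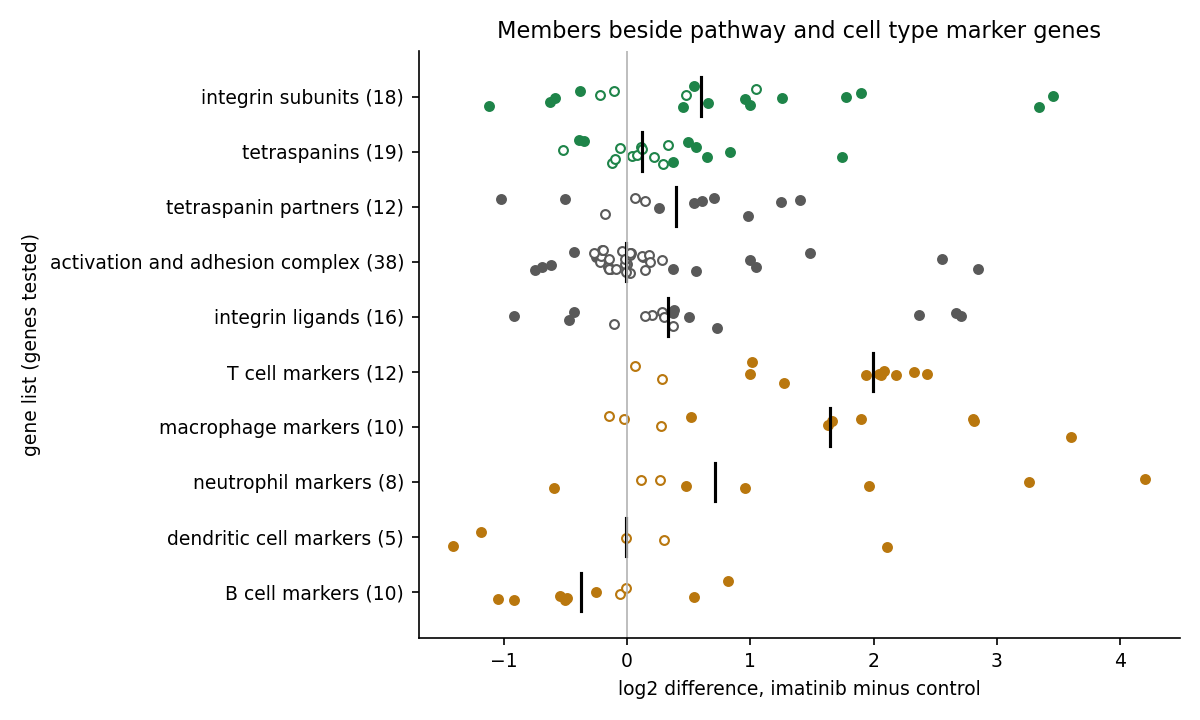
Members beside pathway and cell type marker genes. Each point is a tested gene by its log2 difference, imatinib minus control, filled where the adjusted p was under 0.05, with a black bar at the median of each list. The medians run from -0.37 for B cell markers to 1.99 for T cell markers, with 0.60 for integrin subunits and 0.12 for tetraspanins.

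The cells were not sorted, and integrins differ between cell types, so marker genes are set beside the members. In RNA of a mixed culture, more cells of a type and more RNA per cell cannot be told apart. T cell markers were higher in 10 of 12 tested genes and lower in none, with a median of 1.99; Cd8a was at 2.44, Lat at 2.18 and Cd3g at 2.09, while Cd4 was at 0.07 and did not pass. The summed signal of the list, each gene in units of the array's 75th percentile, was 16.3 and 16.8 with imatinib against 6.56 and 5.75 in control. Macrophage and monocyte markers were higher in 7 of 10 and lower in none, with a median of 1.65, led by Adgre1 at 3.60, Marco and Lyz2 at 2.81 each and Msr1, at least 1.75-fold higher. Their sum was 8.86 and 8.93 with imatinib against 4.04 and 3.86 in control, and most of that rise came from Marco and Adgre1. Csf1r at 0.28, Mpeg1 at -0.15 and C1qb at -0.02 did not pass, and C1qa and C1qc were not above background. The part of these markers in the rises of Itga1, Itga6, Itgb7, Itgax and Cd9 was not tested.

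Neutrophil markers were higher in 5 of 8 tested genes and lower in 1, with a median of 0.72. Mmp8 was at 4.20 and S100a8 at 3.26, while Ly6g was lower, at -0.59 (adjusted p = 0.0097). Csf3r at 0.27 and Elane at 0.11 did not pass. B cell markers were lower in 6 of 10 and higher in 2, with a median of -0.37, at -1.05 for Cd22, -0.92 for Fcer2a and 0.82 for Blk. Their sum was 244 and 253 with imatinib against 291 and 271 in control. The largest part of that sum is Cd79b, which differed by -0.006 (adjusted p = 0.96). Of platelet and megakaryocyte markers, 4 of 10 were tested and only Pf4 passed, at 4.35, while Ppbp, Gp1ba, Gp5, Gp6, Gp9 and Tubb1 were not above background. Dendritic cell markers had 1 higher and 2 lower of 5 tested, with Ccl22 at 2.11, Flt3 at -1.41 and Batf3 at -1.18; Xcr1 and Clec9a were not above background. NK cell markers had 2 higher and 1 lower of 4, and Ncr1 and Klrb1c were not above background. Mast cell and basophil markers had 4 higher and 1 lower of 5. Of those higher, Cpa3 and Mcpt8 were above background on neither control array and entered the test only through the imatinib arrays. Fcer1a, Ms4a2, Mcpt4 and Gata2 were not above background. Plasma cell markers had 3 higher and 2 lower of 6, erythroid markers 2 higher of 4, and stromal and endothelial markers 1 lower of 5 (Pecam1, -0.75).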

How the data were processed

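Per the labels, RNA was extracted on RNeasy columns with 1650 ng of cRNA per array and hybridisation over 17 h at 65 °C. The authors scanned with Feature Extraction 9.1.3.1 per the file headers, and the deposited fluorescence intensity is background-subtracted within each array. The deposited value table holds log2 values. On each array, at least 99.88% of its rows equal log2 of the processed signal less 1 constant per array, within 0.01.

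From the scanner files, spots of a probe were averaged on the log2 scale without outlier-flagged spots, and each array's 75th percentile was subtracted. Probes above background on both arrays of a group were tested (25467, of which 92 were left out for a marked spot). Groups were compared with limma 3.58.1 in R 4.3.3 (lmFit and eBayes, two-sided, Benjamini-Hochberg), with 2 residual degrees of freedom; the fit was tested on simulated data. Where a gene had no above-background control or imatinib array, a fold bound is given, except for Tspan15, whose signals lay above the floor. Precision is limited by the number of arrays.

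Of the member probes, 75 were named by accession and 5 by symbol. The members, lists and the rule for naming genes (the 10 largest changes per family, brightest genes, receptor pairs, bounds, up to 4 per other list) were chosen with earlier results of these data known. Other members are named as counted, and some genes of these lists are not reported here. Promoters are from RefSeq, build GRCm38.p6. Alternatives were quantile normalization, median centring, spike-in scaling, normexp (offset 50), no dim-probe filter, a filter demanding signal on all arrays, the replicate block, each array left out, the value table, a trend and robust variance model, and the mean of a gene's probes.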

Additional observations from a re-analysis of the deposited data

How the results depend on the processing

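With 2 arrays a group, 10 integrin subunits were higher and 4 lower, and these counts stayed within 1.5 times under every alternative run. Leaving out 1 array gave 8 to 12 integrin subunits higher and 3 to 4 lower, 3 to 6 tetraspanins higher and 0 to 1 lower, and 4040 to 8878 called probes, against 10622. The 6 tetraspanins that were higher became 3 without imatinib 1 and 3 without imatinib 2. The 2 lower tetraspanins became 5 under median centring, 6 under spike-in scaling, 0 with dim probes kept, and 1 with a block for the replicate number. The replicate block gave 7164 called probes and gave 10 integrin subunits higher and 4 lower. Deviations of same-numbered samples had a correlation of -0.069, so no shared shift was seen. This cannot tell whether the numbers pair mice or cultures, which the labels leave unstated. Among single members the block ended the calls of Itgb1bp1, Tspan32 and Tspan4. Without the filter, which adds the dim probes to the fit and the adjustment, 4971 probes were called and 9 member calls ended. Itga1, Itga5, Itga6, Itga10, Itgav, Itgax, Itgb1, Itgb5, Itgb7 and Cd9 stayed past the threshold under every alternative that tested them. The mean of a gene's probes, run per gene after the values were seen, ended the calls of Itgam, Itgb1bp1, Tspan17 (1.51, adjusted p = 0.14) and Tspan32. Among members that did not pass, signs turned for Tspan3 (-0.10 and -0.17), Tspan6 (-0.095 and -0.16), Tspan13 (-0.17 and -0.24) and Tspan31 (-0.13 and -0.20) under median centring and spike-in scaling, for Cd37 under spike-in scaling (-0.064), for Itgb3bp under quantile normalization (0.0002), and for Tspan15 under normexp (0.032). Leaving out 1 array gave -0.0059 to 0.096 for Tspan13, -0.25 to 0.0014 for Tspan2, -0.059 to 0.23 for Tspan31 and -0.15 to 0.040 for Tspan33. The cause was not tested. Dim probes close to background lose size under normexp, whose offset shrinks them.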
